A study of Mus musculus with 15 samples.

Results

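Of the TNF superfamily genes examined here, Tnfsf9 carried most of the crosslinks and Tnfrsf1b was the member listed in most conditions. The 8 genes were the ligand gene Tnfsf9 and the receptor genes Tnfrsf1a, Tnfrsf1b, Cd40, Fas, Tnfrsf12a, Tnfrsf10b and Tnfrsf21, with Tnf itself left out. They were chosen by name, with earlier results of these data known. Every sense-strand crosslink site within them was taken from 6 lists of sites bound by tristetraprolin (TTP). These sites numbered 237 of the 162273 sites in all, and 229 of them lay in 3′UTRs and held 607 cDNAs. Sites in 3′UTRs were found for 5 of the 8 genes, beside 4835 of 21043 protein-coding genes (23.0%). These 5 were Tnfsf9 with 455 cDNAs over the 6 lists, Tnfrsf1b with 130, Tnfrsf12a with 18, Cd40 with 3 and Tnfrsf1a with 1. Tnfrsf10b had 2 intronic cDNAs only, and Fas and Tnfrsf21 had no site in any list.

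The sites came from iCLIP, in which UV light links a protein to the RNA it touches and the linked nucleotide is read from the end of each cDNA. All cells were immortalised bone marrow-derived macrophages from TTP-deficient mice of the C57BL/6 strain, transformed with human c-myc and a mutant human Ras, sorted for the macrophage proteins CD11b and F4/80 and transduced with a doxycycline-inducible vector. They expressed either GFP-TTP or GFP-TTP-AA, a mutant that the kinase MK2 cannot phosphorylate, during 6 h of doxycycline, and received no lipopolysaccharide (LPS, 0 h) or LPS for 1 h or 4 h. The lists pooled 2 (TTP 0 h), 2 (TTP-AA 0 h), 4 (TTP 1 h), 3 (TTP-AA 1 h), 2 (TTP 4 h) and 2 (TTP-AA 4 h) libraries, so no value had a replicate spread. Each list held between 8052 and 86497 sites, and its 3′UTR cDNAs numbered 4369 (TTP 0 h), 6008 (TTP-AA 0 h), 9558 (TTP 1 h), 93510 (TTP-AA 1 h), 906 (TTP 4 h) and 1000 (TTP-AA 4 h). A value of 0 means that no site of the gene passed the peak calling of that list, and RNA levels were not part of these data. More RNA and more binding per RNA therefore cannot be told apart in any count below. Of the macrophage markers, 7 of 8 had 3′UTR sites, and 0 of 12 markers of T cells, B cells and fibroblasts had one. Zfp36, the gene of TTP, had between 0 and 31 coding-sequence cDNAs per list, which came from cells that carried a TTP transgene and check neither the deletion nor the labels. Its 3′UTR held 4 (TTP 0 h), 21 (TTP 1 h) and 131 (TTP-AA 1 h) cDNAs, and 0 in the other lists. According to the authors the transgene held the coding sequence of TTP only. The source of the 3′UTR cDNAs was not tested.

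Ligands of the TNF superfamily are mostly membrane-bound trimers, and their receptors relay the signal through TRAF adaptors to NF-κB and MAP kinases or, where they carry a death domain, to caspases. Macrophages both make and sense these ligands when LPS engages TLR4. TTP binds AU-rich elements in the 3′UTRs of cytokine mRNAs, of which the Tnf mRNA is the classical example, and recruits the machinery that removes the poly(A) tail. Its preferred element is a nonamer built around the pentamer AUUUA, and the heptamer UAUUUAU is the core of that nonamer.

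The sequences below show where the members were bound and, for comparison, similar elements where no site was listed. All are written 5′ to 3′ as RNA from GENCODE M21 transcripts on GRCm38 (mm10), with each AUUUA in capitals. The first window held 18 of the 26 Tnfsf9 cDNAs of the TTP 1 h list and 156 of the 429 cDNAs of the TTP-AA 1 h list.
Tnfsf9, 3′UTR nt 88 to 117, chr17:57107592-57107621, plus strand: cucuugucuuuaacuggacuugguAUUUAu
Tnfsf9, nt 208 to 237, chr17:57107712-57107741, plus strand: aucaaaguuuauAUUUAuauuaauauauaa
Tnfrsf1b, nt 2073 to 2102, chr4:145213685-145213714, minus strand: uccuAUUUAauaaguuaguuuugaacuggc
Tnfrsf1b, nt 2024 to 2053, chr4:145213734-145213763, minus strand: uguauaccugcauuuuauccacuaagacau
Tnfrsf12a, nt 470 to 499, chr17:23675492-23675521, minus strand: aaggggggugauAUUUAuuguggggauaau
Cd40, nt 644 to 673, chr2:165071557-165071586, plus strand: auuguagaaauuAUUUAaucccgcccuggg

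The next windows held no cDNA in any list although each contains at least 1 AUUUA.
Tnfrsf1b, nt 1970 to 1999, chr4:145213788-145213817, minus strand: uaccugcccgacAUUUAcaugaauacuaga
Cd40, nt 342 to 371, chr2:165071255-165071284, plus strand: aaaucuguaauuAUUUAuacaaugacaucu
Tnfrsf10b, nt 932 to 961, chr14:69783498-69783527, plus strand: uaauuuuuuauuAUUUAuuuucuucauuca
Tnfrsf10b, nt 1211 to 1240, chr14:69783777-69783806, plus strand: uuuuaauuagguAUUUAuuucAUUUAaauu

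**Figure D1:**
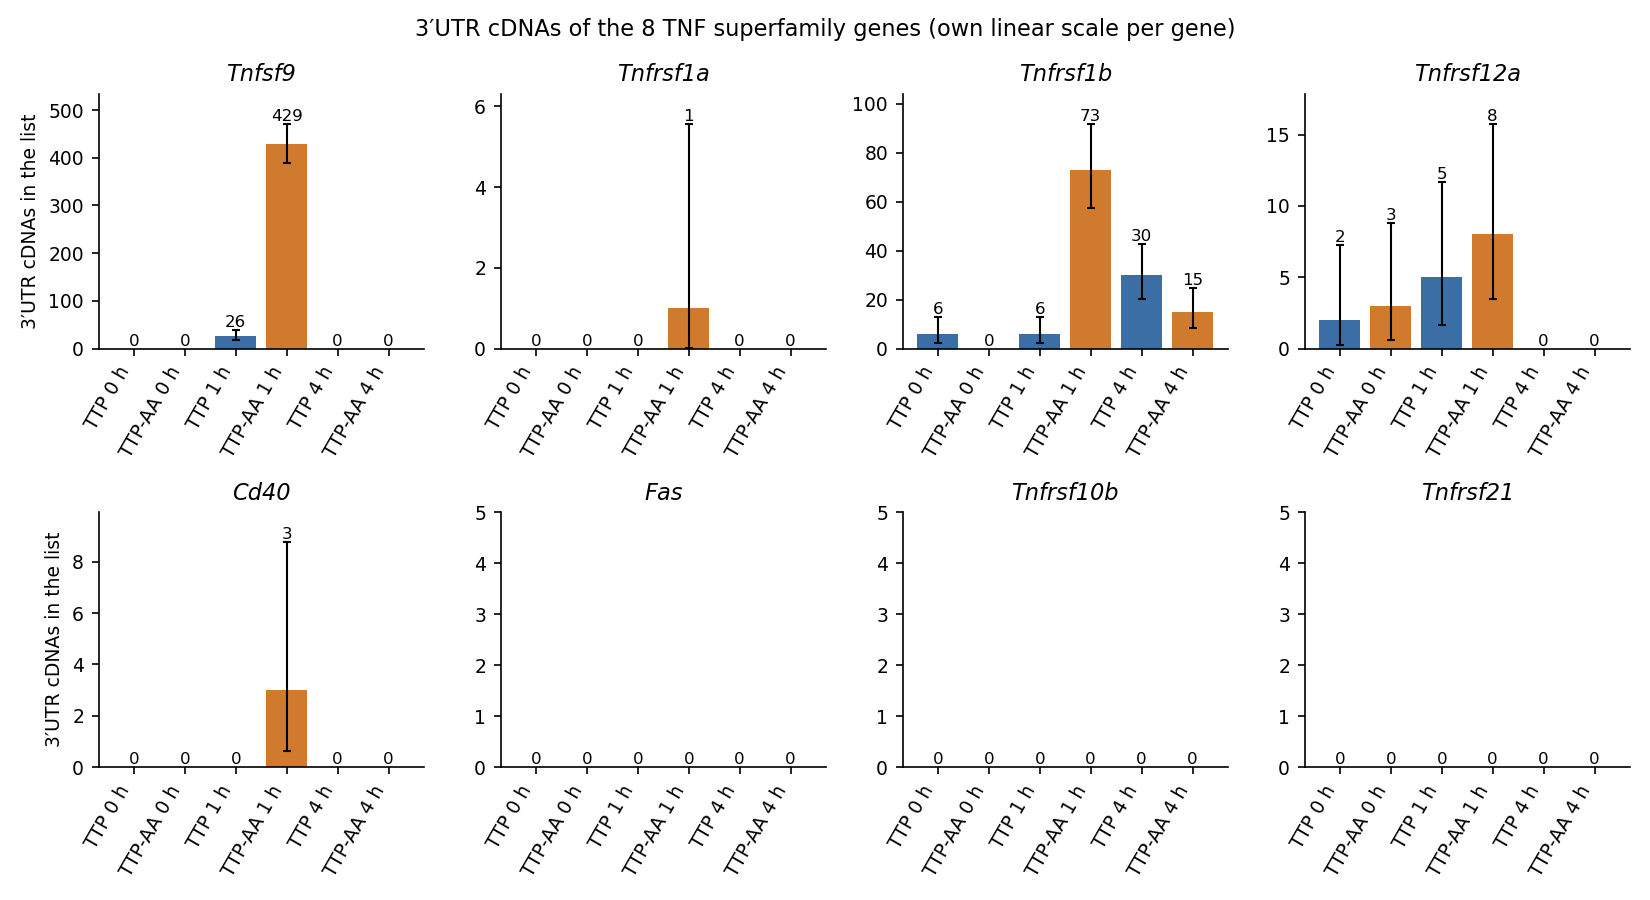
3′UTR cDNAs of each of the 8 genes in the 6 lists (bars, own linear scale per gene, with the count above each bar), with exact Poisson 95% intervals that cover counting error only. Tnfsf9 was listed at 1 h only (26 cDNAs for TTP and 429 for TTP-AA), Tnfrsf1b in 5 lists, and Fas, Tnfrsf10b and Tnfrsf21 in none.

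Tnfsf9 encodes 4-1BB ligand, a co-stimulatory ligand that antigen-presenting cells display to T cells. The gene lies at chr17:57105325-57107757 on the plus strand, and its 3′UTR is a single exonic stretch of 253 nt (57107505 to 57107757) that is 66.0% A and U. It was listed with 0 cDNAs in both 0 h lists, with 26 cDNAs at 19 sites in the TTP 1 h list, with 429 cDNAs at 124 sites in the TTP-AA 1 h list, and with 0 cDNAs in both 4 h lists. Each of these sites was in the 3′UTR, and none was found in the coding sequence, the 5′UTR, the introns or on the opposite strand.

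By length, Tnfsf9 was among the most densely covered 3′UTRs of the 1 h lists. In the TTP-AA 1 h list it held 1696 cDNAs per kb, rank 7 of 4427 genes, against a median of 5.99 cDNAs per kb. In the TTP 1 h list it held 102.8 cDNAs per kb, rank 18 of 1290 genes, against a median of 2.21. By cDNAs without regard to length, the ranks were 17 of 4468 genes and 40 of 1295 genes. TTP-AA sites covered 49.0% of the nucleotides of this 3′UTR and TTP sites covered 7.51%.

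The number of Tnfsf9 cDNAs was 16.5 times as high in the TTP-AA 1 h list as in the TTP 1 h list (95% counting interval, 11.1 to 25.6), whereas all 3′UTRs together were 9.78 times as high. Tnfsf9 made up 0.272% of the 3′UTR cDNAs for TTP and 0.459% for TTP-AA. The odds ratio of that difference was 1.69 (95% interval, 1.14 to 2.62). It did not pass the two-sided Fisher's exact test after Benjamini-Hochberg adjustment over the 2065 genes tested (p = 0.00731, adjusted p = 0.0904), in a comparison in which 6.39% of the genes were called, and the adjusted p lay between 1.5e-51 and 0.596 over the alternatives. By the same exact test, the odds ratio turned to 0.722 when each site was counted once (adjusted p = 0.596). The number of sites is bounded by the 253 nt of this 3′UTR, of which TTP-AA sites covered 49.0%. In the exact test the odds ratio rose to 2.80 when only sites with at least 2 cDNAs were used (adjusted p = 0.00128), where 8.06% of 794 genes were called. This filter kept 12 of 26 TTP cDNAs and 386 of 429 TTP-AA cDNAs. A single cDNA was held by 14 of 19 TTP sites and by 43 of 124 TTP-AA sites. In the exact test against all cDNAs of any region the odds ratio was 9.41 (adjusted p = 1.5e-51), where 85.4% of the genes were called.

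At 0 h, the 1 h shares of Tnfsf9 would have corresponded to 11.9 TTP cDNAs and 27.6 TTP-AA cDNAs, and both lists held 0. At 4 h, the same shares would have corresponded to 2.46 TTP cDNAs and 4.59 TTP-AA cDNAs, so at this depth a share as high as that at 1 h amounts to a few cDNAs only. Peaks were called separately at each time, and only the headers of the 1 h lists carry a mark for regions taken as one. A difference between 1 h and the other times and a difference in peak calling therefore cannot be told apart, and levels at different times are set side by side without a test.

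The Tnfsf9 3′UTR holds AUUUA at nt 112 and nt 220, counted from the first nucleotide of the 3′UTR, each within a UAUUUAU. Of the 1524 3′UTRs within 20% of its length, 31.6% contained AUUUA and 7.28% contained UAUUUAU. In the TTP 1 h list the site with most cDNAs was nt 112, the first nucleotide of the upstream AUUUA, with 4 cDNAs, and the densest window of 30 nt was nt 88 to 117. In the TTP-AA 1 h list the site with most cDNAs was nt 98, upstream of that element, with 24 cDNAs, followed by nt 112 with 23 and nt 111 with 21, and the densest window was nt 91 to 120. Of the 19 TTP sites, 18 lay at the same nucleotide as a TTP-AA site, and the remaining one lay within 5 nt of one.

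Nearly all cDNAs at the downstream element were TTP-AA cDNAs, from a list with 16.5 times as many Tnfsf9 cDNAs as the TTP list. With 26 TTP cDNAs in all, few could be listed there. In the window of nt 208 to 237 the TTP list held 1 cDNA and the TTP-AA list held 88. After nt 168, midway between the AUUUA copies, lay 1 of 26 TTP cDNAs (3.85%, Wilson 95% interval 0.682 to 18.9) and 132 of 429 TTP-AA cDNAs (30.8%, 26.6 to 35.3). This dividing line was chosen after the positions had been seen, and the difference was not tested. After the middle of the 3′UTR, nt 127, lay 7 of 26 TTP cDNAs (26.9%, 13.7 to 46.1) and 217 of 429 TTP-AA cDNAs (50.6%, 45.9 to 55.3). Few cDNAs lay towards the 3′ end, where the polyadenylation signal AAUAAA starts at nt 239, with 0 TTP and 5 TTP-AA cDNAs within 20 nt of the 3′UTR end.

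**Figure D2:**
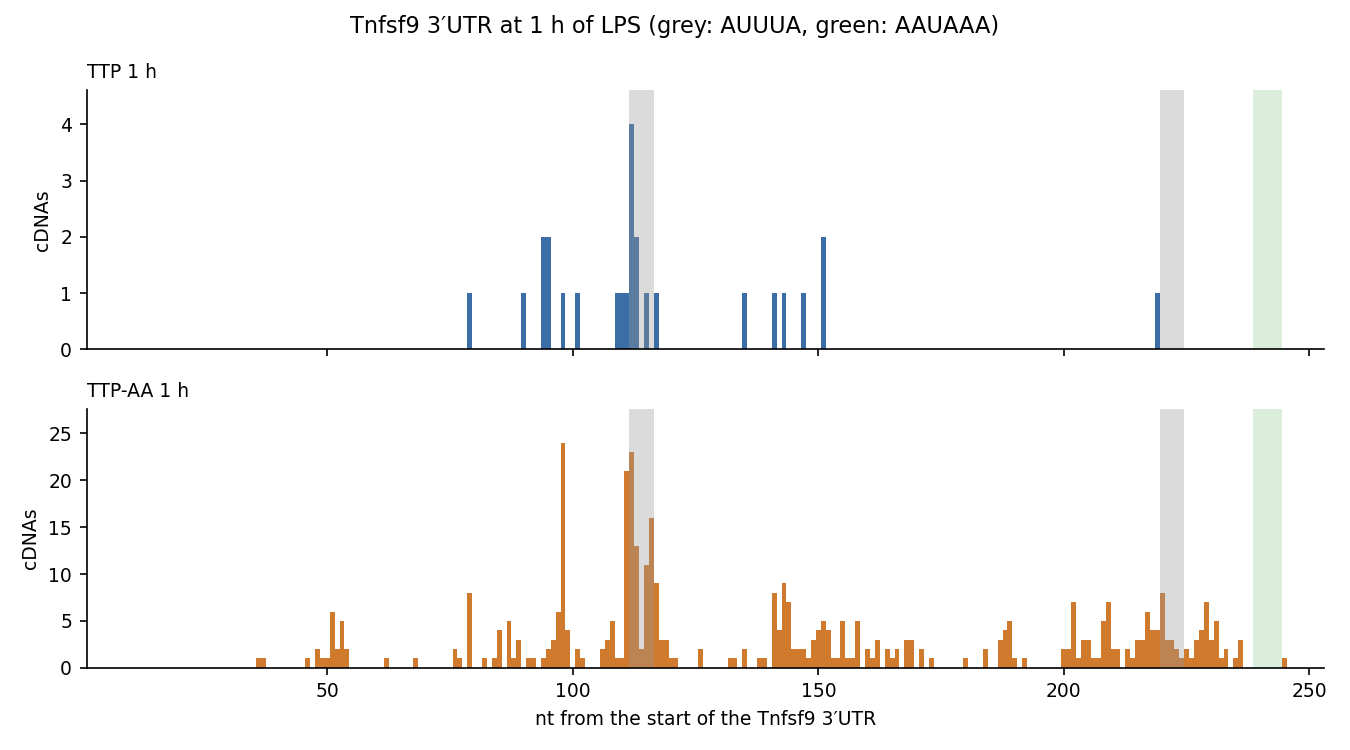
cDNAs at each nucleotide of the Tnfsf9 3′UTR (x axis, nt from its start) in the TTP 1 h list (top, 26 cDNAs) and the TTP-AA 1 h list (bottom, 429 cDNAs), on separate linear scales, with AUUUA in grey and AAUAAA in green. Both lists peak at and just before the AUUUA at nt 112, and the region around the AUUUA at nt 220 holds 1 cDNA in the TTP list and many in the TTP-AA list.

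Tnfrsf1b encodes TNF receptor 2 (TNFR2), which binds membrane-bound TNF and signals through TRAF2 without a death domain. The gene lies at chr4:145213463-145246870 on the minus strand, with a 3′UTR of 2324 nt (145213463 to 145215786) that is 48.8% A and U. Its 3′UTR held 6 cDNAs in the TTP 0 h list, 0 in the TTP-AA 0 h list, 6 in the TTP 1 h list, 73 in the TTP-AA 1 h list, 30 in the TTP 4 h list and 15 in the TTP-AA 4 h list. It was the only one of the 8 genes listed at 4 h and the only one with a site in 5 lists.

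As a share of the 3′UTR cDNAs of a list, Tnfrsf1b stood highest at 4 h, where the lists were shortest and their peaks were called apart from those of 1 h. It took 3.31% of the 3′UTR cDNAs of the TTP 4 h list, rank 5 of 127 genes, and 1.5% of the TTP-AA 4 h list, rank 9 of 198 genes. At 1 h its share was 0.0628% for TTP, rank 272 of 1295, and 0.0781% for TTP-AA, rank 192 of 4468. At 0 h it took 0.137% of the TTP list, rank 164 of 738. Per kb of 3′UTR the ranks were 11 of 127 (TTP 4 h), 45 of 197 (TTP-AA 4 h), 580 of 1290 (TTP 1 h) and 606 of 4427 (TTP-AA 1 h).

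At 4 h, the share of Tnfrsf1b was lower in the TTP-AA list than in the TTP list, with an odds ratio of 0.445 (95% interval, 0.221 to 0.860). This difference passed the test (Fisher's exact test, p = 0.0101, adjusted p = 0.0158), in a comparison of 25 genes of which 68% were called, so that a call was the common outcome there. The call of the exact test was lost when the comparison was made against all cDNAs of any region (odds ratio 0.758, adjusted p = 0.588). With a minimum of 5 cDNAs it was kept (Fisher's exact test, adjusted p = 0.0270), where 65.4% of the genes were called. Lars2, a mitochondrial leucyl-tRNA synthetase gene, took 21.7% of the 3′UTR cDNAs of the TTP 4 h list and 7.4% of the TTP-AA 4 h list. Without it the odds ratio of Tnfrsf1b was 0.373 (Fisher's exact test, adjusted p = 0.00393), in a comparison that was not planned beforehand.

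At 1 h, the Tnfrsf1b cDNAs were 12.2 times as many for TTP-AA as for TTP (5.33 to 34.2). The odds ratio was 1.24 (0.545 to 3.50) and the difference did not pass the test (Fisher's exact test, adjusted p = 0.892). By the same exact test, the odds ratio was 0.553 with each site counted once (adjusted p = 0.510) and 6.93 against all cDNAs of any region (adjusted p = 4.3e-08), where 85.4% of the genes were called, and the adjusted p lay between 4.3e-08 and 1 over the alternatives. The difference between the odds ratios at 1 h and 4 h, tested by Zelen's exact test after the values had been seen and subject to the same limit of peak calling, did not pass either (p = 0.0708, adjusted p = 0.126), where 48% of the 25 genes tested at both times were called. At 0 h, with 6 cDNAs in 1 list and 0 in the other, the gene fell below the minimum of 10 cDNAs for a test. The alternative minimum of 5 cDNAs would admit it, but its outcome there is not given here. In that alternative 27.4% of 570 genes were called at 0 h.

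In each of the 5 lists the cDNAs of Tnfrsf1b gathered at or shortly after the AUUUA at nt 2077. This AUUUA is 247 nt before the 3′UTR end and not part of a UAUUUAU. The window of nt 2073 to 2102 held 6 of 6 cDNAs in the TTP 0 h list, 6 of 6 in the TTP 1 h list, 53 of 73 in the TTP-AA 1 h list, 22 of 30 in the TTP 4 h list and 11 of 15 in the TTP-AA 4 h list. The 4 nucleotides nt 2077, 2088, 2091 and 2092 were listed as sites in 4 lists each. Within this group most cDNAs lay after the element rather than before it. In the TTP-AA 1 h list, of the 53 cDNAs from 20 nt before to 20 nt after the AUUUA, 4 lay before it, 19 on it and 30 after it. In the TTP 4 h list, of 20 such cDNAs, 0 lay before it, 2 on it and 18 after it. The AUUUA itself held 0 of 5 in the TTP 0 h list, 1 of 6 in the TTP 1 h list and 4 of 9 in the TTP-AA 4 h list.

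Smaller groups of sites flanked this position. Between nt 2024 and 2051, a stretch without AUUUA, lay 12 cDNAs of the TTP-AA 1 h list and 6 of the TTP 4 h list, and 0 of the other lists. Between nt 2125 and 2141 lay 4 cDNAs of the TTP-AA 1 h list and 4 of the TTP-AA 4 h list, and 0 of the TTP lists. Between nt 541 and 553, far upstream, lay 3 cDNAs of the TTP-AA 1 h list. The other AUUUA of this 3′UTR, at nt 1982, had no cDNA in any list. At this length AUUUA is usual, since 93.2% of the 2715 3′UTRs within 20% of the length of Tnfrsf1b contained it.

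**Figure D3:**
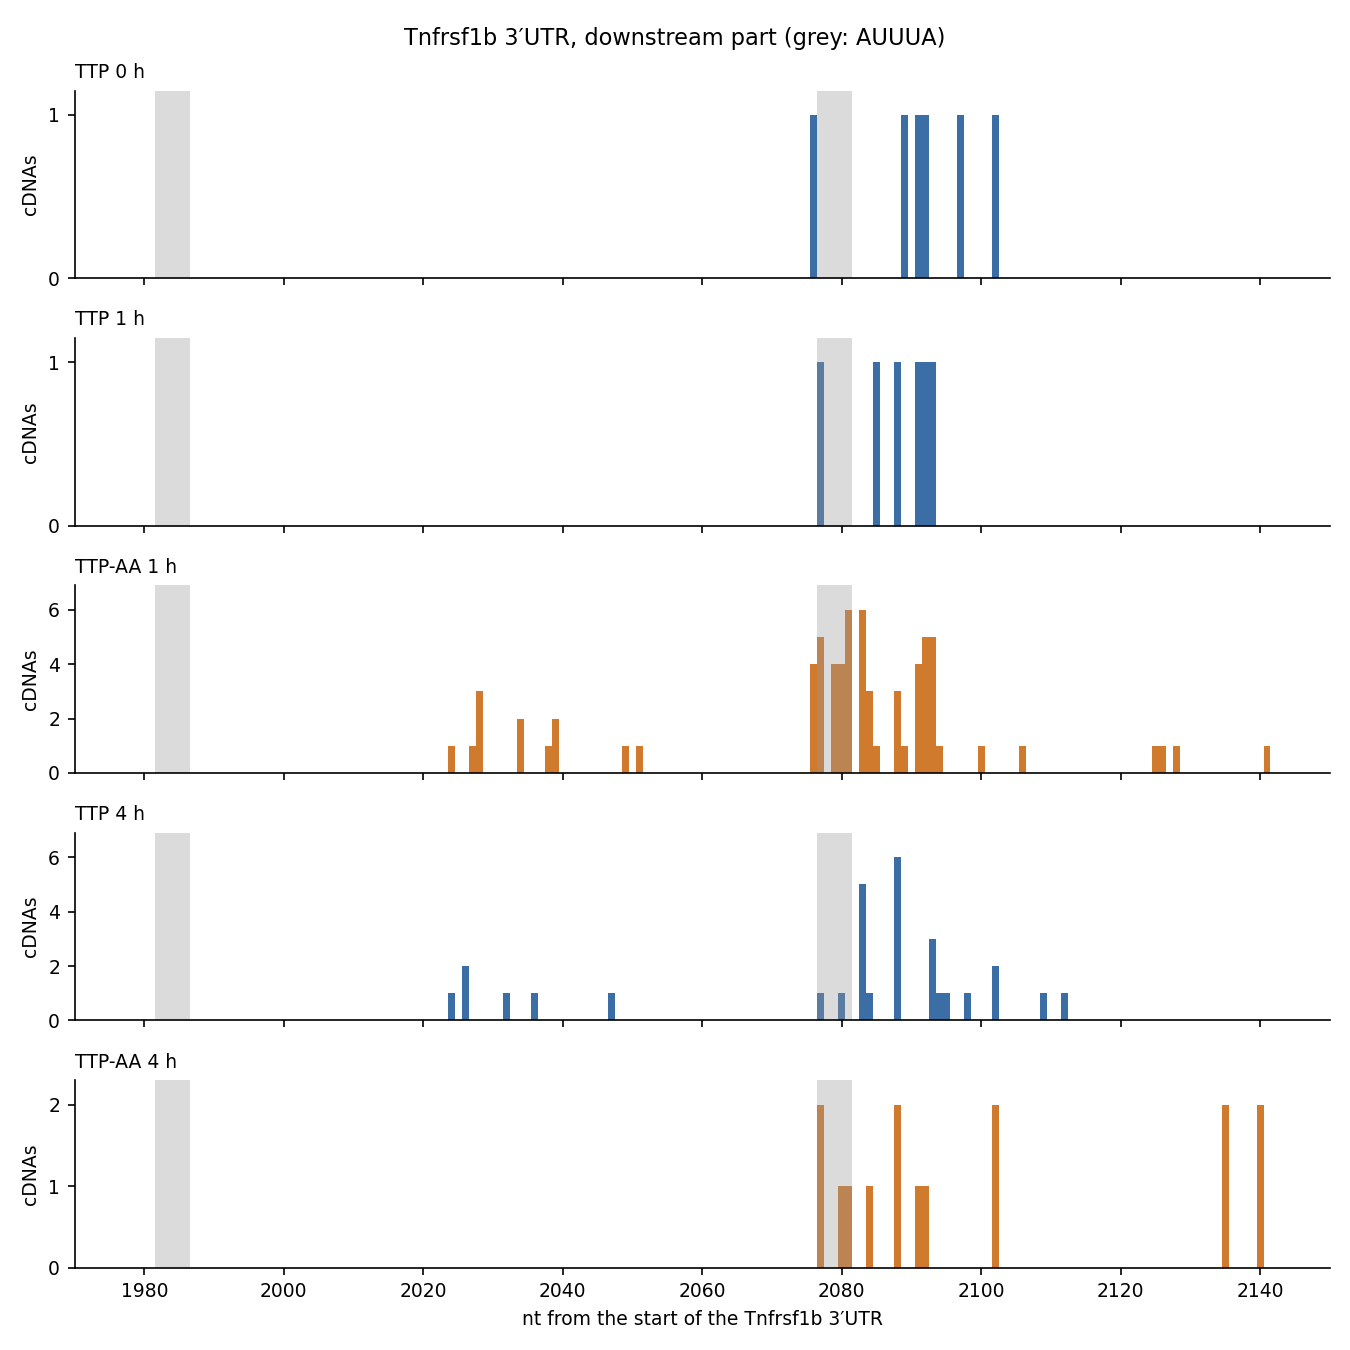
cDNAs at each nucleotide of the downstream part of the Tnfrsf1b 3′UTR (x axis, nt from its start) in the 5 lists that hold the gene, each on its own linear scale, with AUUUA in grey. The sites of all 5 lists gather at and after the AUUUA at nt 2077, and the AUUUA at nt 1982 has none.

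Tnfrsf12a encodes Fn14, the receptor of the ligand TWEAK, whose gene is Tnfsf12. The gene lies at chr17:23675445-23677468 on the minus strand, and its 3′UTR of 546 nt (23675445 to 23675990) contains 1 AUUUA, at nt 482, within a UAUUUAU. Its 3′UTR cDNAs numbered 2 (TTP 0 h), 3 (TTP-AA 0 h), 5 (TTP 1 h), 8 (TTP-AA 1 h), 0 (TTP 4 h) and 0 (TTP-AA 4 h). Counts for both proteins were thus low and similar at 0 h and 1 h, although the TTP-AA 1 h list held 9.78 times the 3′UTR cDNAs of the TTP 1 h list.

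The cDNAs of Tnfrsf12a were 1.6 times as many for TTP-AA as for TTP at 1 h (0.462 to 6.22), against 9.78 times for all 3′UTRs. The odds ratio was accordingly below 1, at 0.163 (0.0471 to 0.635), rank 2028 of 2065, and the difference did not pass the test (Fisher's exact test, p = 0.00466, adjusted p = 0.0659). The adjusted p lay between 0.0660 and 1 over the alternatives. All 13 cDNAs at 1 h lay between nt 481 and 487, on the UAUUUAU itself, and the site with most cDNAs was nt 482 in both lists. At 0 h, the 2 TTP cDNAs lay at nt 485 and 496 and the 3 TTP-AA cDNAs at nt 498, 502 and 512, within or after the element.

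Cd40, the receptor through which helper T cells activate macrophages and B cells, had 3 cDNAs, all in the TTP-AA 1 h list. The gene lies at chr2:165055627-165072948 on the plus strand, with a 3′UTR of 2035 nt that contains 7 AUUUA, of which 1, at nt 354, lies within a UAUUUAU. The 3 cDNAs lay at nt 656 (2 cDNAs) and nt 659 (1 cDNA), on the AUUUA that starts at nt 656. The other 6 AUUUA, the one within UAUUUAU included, had no cDNA within 20 nt.

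Tnfrsf1a encodes TNF receptor 1 (TNFR1), the death-domain receptor for TNF. The gene lies at chr6:125349362-125362484 on the plus strand. Its 3′UTR of 490 nt holds no AUUUA, and its sole cDNA, in the TTP-AA 1 h list, lay at nt 382, at the nucleotide in capitals below.
Tnfrsf1a, nt 368 to 397, chr6:125362362-125362391, plus strand: aucuuuguaucaauUauaucacacuaaugg

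The 3 remaining receptors are death-domain receptors, and none had a 3′UTR site. Fas, the receptor of Fas ligand (chr19:34290666-34327772, 3′UTR of 448 nt), has no AUUUA. Tnfrsf21, death receptor 6 (chr17:43016555-43089189, 3′UTR of 1217 nt), has 2 AUUUA, at nt 1060 and 1189. Tnfrsf10b, the mouse TRAIL receptor (chr14:69767472-69784411, 3′UTR of 1845 nt), has 4 AUUUA, 3 of them within a UAUUUAU, and is the only one of the 8 genes with the full nonamer UUAUUUAUU, at nt 942. It held 2 intronic cDNAs in the TTP 0 h list, at positions 69770963 and 69770975, and none elsewhere.

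The motif was found in members with and without sites. AUUUA occurred in 6 of the 8 3′UTRs and UAUUUAU in 4, while 65.2% and 27.6% of 21028 3′UTRs of all lengths contained them. Of the 18 AUUUA copies, 5 had cDNAs within 20 nt in any list. These were 3 of the 7 copies inside a UAUUUAU (both copies in Tnfsf9 and the one in Tnfrsf12a) and 2 of the 11 copies outside one (nt 2077 in Tnfrsf1b and nt 656 in Cd40).

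Within 20 nt, the share of cDNAs near AUUUA was higher for the 8 genes than for all 3′UTRs in each list, but within 10 nt it was lower in 3 of the 6 lists. These were TTP 0 h (25% beside 33.6%), TTP-AA 0 h (0% beside 24.7%) and TTP 4 h (26.7% beside 28.8%). In the TTP 1 h list, 25 of 37 member cDNAs (67.6%, 51.5 to 80.4) had an AUUUA wholly within 20 nt, beside 43.4% of all 3′UTR cDNAs. In the TTP-AA 1 h list these were 317 of 514 (61.7%, 57.4 to 65.8) beside 40.7%, and when each site was counted once the share was 46.9% beside 34.7%. In the TTP 4 h list they were 19 of 30 (63.3%, 45.5 to 78.1) beside 39.6%, all from Tnfrsf1b. These shares have no test, since the cDNAs of a gene share one sequence and the TTP-AA 1 h value rests on 429 cDNAs of Tnfsf9; without Tnfsf9 it was 74.1%. The crosslinked nucleotide was U for 59.5% (55.2 to 63.7) of the member cDNAs of the TTP-AA 1 h list and for 62.1% of all 3′UTR cDNAs of that list, while 26.2% of the nucleotides in the listed members' 3′UTRs were U. For Tnfsf9, with 429 of these 514 cDNAs, the nucleotide was U for 59.2%, beside 36.4% of the nucleotides of its own 3′UTR.

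**Figure D4:**
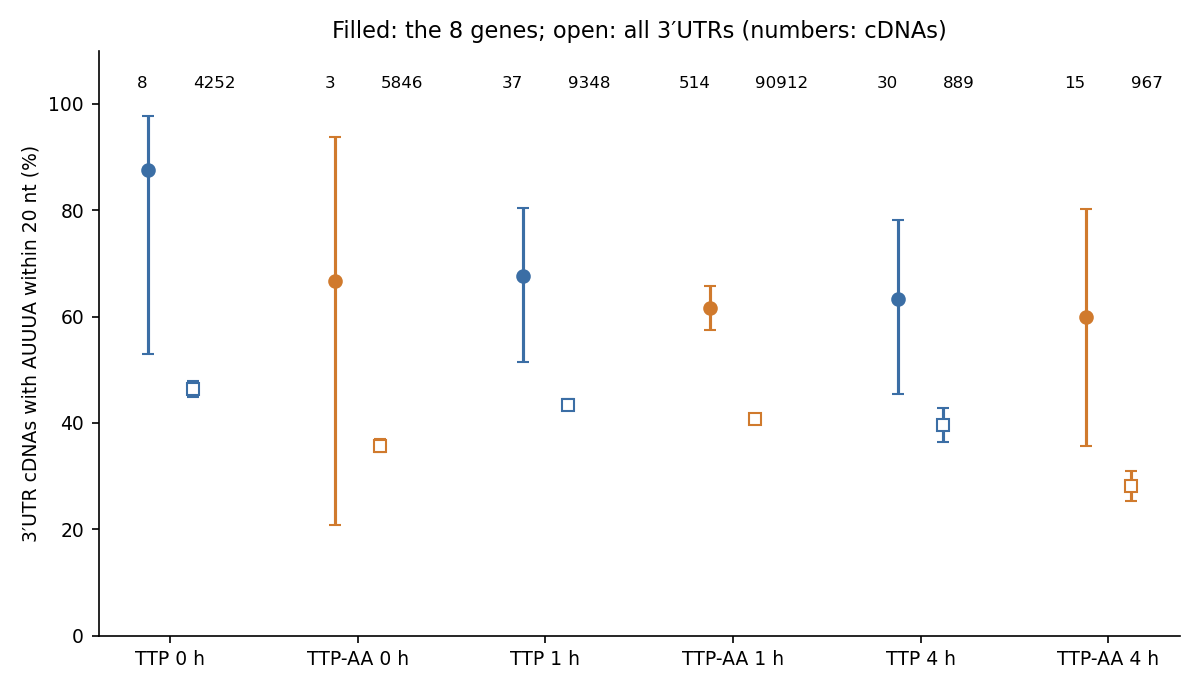
Share of 3′UTR cDNAs with an AUUUA wholly within 20 nt (y axis, percent) in each list, for the 8 genes (filled) and for all 3′UTRs (open), with Wilson 95% intervals for counting error and the number of cDNAs above. At this distance the 8 genes lie above all 3′UTRs in each list (within 10 nt they lie below in TTP 0 h, TTP-AA 0 h and TTP 4 h), with wide intervals where they hold few cDNAs: 8, 3, 37, 514, 30 and 15 from left to right.

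Of the 29 member sites of the TTP 1 h list, 29 had a TTP-AA 1 h site within 15 nt (100%, 88.3 to 100) and 27 at the same nucleotide (93.1%, 78.0 to 98.1). Over all 3′UTR sites of the TTP 1 h list these shares were 76.8% and 46.3%, and for Tnf they were 100% and 89.3%. Of the 29 member sites, 19 were in Tnfsf9, where TTP-AA sites covered 49.0% of the nucleotides. A TTP-AA site within 15 nt was therefore nearly certain beforehand in this 3′UTR. At 4 h, 12 of the 17 TTP sites in Tnfrsf1b had a TTP-AA site within 15 nt (70.6%, 46.9 to 86.7) beside 29.9% of all 3′UTR sites. At 0 h, 2 of 8 member sites had one (25%, 7.15 to 59.1) beside 41.6%, and both were in Tnfrsf12a. The other 6 were in Tnfrsf1b, which had 0 sites in the TTP-AA 0 h list, so none of them could have one.

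Summed over the 8 genes, the 3′UTR cDNAs at 1 h numbered 37 for TTP and 514 for TTP-AA, a ratio of 13.9 (9.94 to 19.96) beside 9.78 for all 3′UTRs. Tnfsf9 set this value: without it the sums were 11 and 85 and the ratio was 7.73 (4.11 to 16.1). With each site counted once the ratio of the 8 genes was 5.59 (3.75 to 8.61), below the 9.03 of all 3′UTR sites. At 0 h the sums were 8 and 3, and at 4 h 30 and 15. Of the 8 genes, 3 could be tested at 1 h and 0 were called by Fisher's exact test at an adjusted p threshold of 0.05, while 2 (Tnfsf9 and Tnfrsf12a) had an unadjusted p below 0.05, as had 374 of all 2065 genes tested. None reached the minimum of 10 cDNAs for a test at 0 h, where 30.7% of 241 genes were called. At 1 h, of the 132 genes called, 41 had a higher share for TTP-AA and 91 for TTP. The median difference of TTP-AA minus TTP in cDNAs per 100000 3′UTR cDNAs was 15.3 for the 3 members tested and 12.8 for all genes tested.

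**Figure D5:**
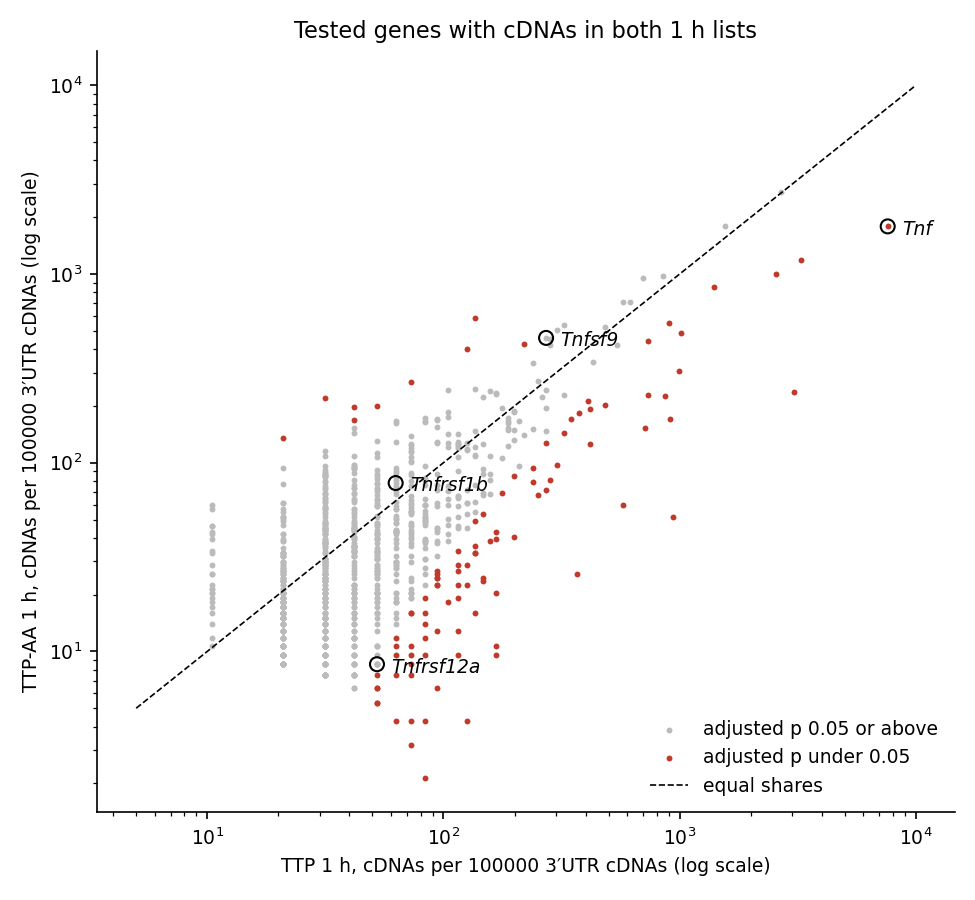
cDNAs per 100000 3′UTR cDNAs in the TTP 1 h list (x axis, log scale) and the TTP-AA 1 h list (y axis, log scale) for the 925 tested genes with cDNAs in both lists; 1140 tested genes without a TTP cDNA are not drawn. Tnfsf9 and Tnfrsf1b lie above the line of equal shares and Tnfrsf12a below it, all 3 with adjusted p above 0.05 (grey), whereas Tnf, drawn for comparison, lies below the line with adjusted p under 0.05 (red).

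Tnf, the founding ligand, held more 3′UTR cDNAs than any of the 8 genes in each list except TTP-AA 0 h. It held 53 (TTP 0 h), 0 (TTP-AA 0 h), 727 (TTP 1 h), 1673 (TTP-AA 1 h), 35 (TTP 4 h) and 77 (TTP-AA 4 h) 3′UTR cDNAs, and 8 AUUUA, all within UAUUUAU. At 1 h its odds ratio was 0.221 (Fisher's exact test, adjusted p = 6.2e-188), where that of Tnfsf9 was 1.69 and that of Tnfrsf12a was 0.163. At 4 h it was 2.08 (Fisher's exact test, adjusted p = 0.00102), where that of Tnfrsf1b was 0.445.

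Of the other genes of the family, 7 of 37 (18.9%) had a 3′UTR site in any list, beside 4835 of 21043 protein-coding genes (23.0%). Of 16 other ligand genes, 1 had a 3′UTR site, Tnfsf12 (TWEAK) with 7 cDNAs in the TTP-AA 1 h list. Of 21 other receptor genes, 6 had one, and those with most cDNAs over the 6 lists were Tnfrsf26 with 36, Tnfrsf11a (RANK, the receptor that drives osteoclast formation) with 30, Ltbr (the lymphotoxin β receptor) with 7, Eda2r with 3 and Tnfrsf13b (TACI) with 2. Tnfrsf11a was listed only for TTP-AA, with 10 cDNAs at 0 h and 20 at 1 h. At 0 h its share was higher for TTP-AA, 10 cDNAs against 0 (Fisher's exact test, adjusted p = 0.0244), where 30.7% of the genes tested were called. Tnfrsf26, with 7 cDNAs in each 0 h list, was also tested and did not pass. At 1 h, these same receptors were tested and 0 were called by Fisher's exact test, with 0 below an unadjusted p of 0.05. Of all 2065 genes tested at 1 h, 6.39% were called.

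Of 23 genes that relay signals from these receptors, 13 had a 3′UTR site (56.5%, beside 23.0% of all protein-coding genes), all 13 in the TTP-AA 1 h list. These shares were not matched for 3′UTR length or RNA level. Cflar, which encodes the caspase-8 inhibitor FLIP, held 14 cDNAs at 1 h for TTP and 209 for TTP-AA (odds ratio 1.53, Fisher's exact test, adjusted p = 0.446). Birc3 (the ubiquitin ligase cIAP2) held 42 cDNAs over the lists, Traf3 (an inhibitor of non-canonical NF-κB signalling) 34, Casp8 (the initiator caspase) 33 and Adam17 (the protease that sheds TNF and TNFR2) 26. Of these 23 genes, 8 were tested at 1 h by Fisher's exact test and 0 were called, with 0 below an unadjusted p of 0.05. Over all 2065 genes tested, 6.39% were called and 374 had an unadjusted p below 0.05, so 0 calls among 8 genes is the common outcome. Their median difference was 11.995 cDNAs per 100000, beside 12.8 for all genes.

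The genes whose profile over the 6 lists was nearest to that of Tnfsf9, among 162 genes with at least 100 3′UTR cDNAs, were Nlrp3 (an inflammasome sensor), Id2 and Maff (transcriptional regulators), Cflar and Msn (a linker of actin to the membrane). As the measure of likeness selects for, each had 0 cDNAs at 0 h and 4 h, and their ratios followed that of Tnfsf9, as in Nlrp3 with 31 cDNAs for TTP and 505 for TTP-AA. The distance, the summed absolute difference between profiles that each add to 1, was 0.00599 for Nlrp3 and 0.0870 for Msn, against a median of 1.32. For Tnfrsf1b the nearest were Lars2 (0.226), Fasn, Entr1, Eif4a1 and Ccl4 (0.559), against a median of 1.89, all with more of their depth-scaled cDNAs at 4 h than at 1 h. Each profile rests on 6 values.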

How the data were processed

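iCLIP was performed on 15 libraries in 6 groups according to the sample titles. The deposited values are scores: per the file headers and values, each site carries a signed whole number of unique cDNAs, 1 list per group. The authors removed PCR duplicates by random barcode bases, mapped reads to mm10 with Bowtie (Ensembl 75 annotation), pooled each group's libraries and retained sites at a false-discovery rate of 0.05 in iCount (100 permutations, 15 nt neighbourhood). The headers of the 1 h lists carry a mark for regions taken as one, although the descriptions name separate regions. Sites below the threshold are not in the lists.

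Sites were assigned in Python 3.11.15 (numpy 2.4.6, scipy 1.17.1, matplotlib 3.10.9) to GENCODE M21, in the order 3′UTR, coding sequence, 5′UTR, non-coding exon, intron. M21 is later than the annotation of the authors, so counts can differ from theirs. A 3′UTR site in several genes was given to 1 of them, and positions refer to the transcript with the longest 3′UTR. Each gene with at least 10 3′UTR cDNAs over both lists was tested by a two-sided Fisher's exact test relative to the remaining 3′UTR cDNAs, with Benjamini-Hochberg adjustment over all genes tested and a threshold of 0.05. The 3′UTR cDNAs of a list numbered between 906 and 93510. The lists pool libraries, so the tests compare pooled lists and the 95% intervals (Wilson, exact) cover counting error only. Fisher's test, Zelen's test and the interval of the count ratio were checked on artificial counts with known answers. These counts varied by counting error only, so the check does not cover spread between libraries. The Wilson and odds ratio intervals were not checked in this way.

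The members and gene lists were chosen with earlier results of these data known. Named were the 8 genes, Tnf, the 5 genes with most 3′UTR cDNAs of each family list, those called at 1 h, and the 5 nearest profiles of members with at least 50 cDNAs. Alternatives were a minimum of 5 or 20 cDNAs, all cDNAs as the reference, each site counted once, sites with at least 2 cDNAs, 3′UTRs extended by 1000 nt, and motif distances of 10 and 50 nt.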

Additional observations from a re-analysis of the deposited data

Results flagged for a closer look

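A few Tnfrsf1b cDNAs lay outside the 3′UTR on which the comparisons rest. The TTP-AA 1 h list held 4 cDNAs between 916 and 926 nt past the annotated 3′UTR end, where the other 5 lists held 0. The TTP 4 h list held 4 intron cDNAs at 4 adjacent nucleotides (chr4:145230533-145230536), and the TTP-AA 4 h list held 2 at adjacent nucleotides of an intron (chr4:145236984-145236985). Their source was not tested. With 1 pooled list per group, samples of a group were not compared with each other.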

How the results depend on the processing

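No paired analysis was possible because each list pools the libraries of its group, and for the same reason no library could be left out. Counting each site once turned the odds ratio at 1 h from 1.69 to 0.722 for Tnfsf9 and from 1.24 to 0.553 for Tnfrsf1b. For Tnfsf9 the number of sites is bounded by its 253 nt, of which TTP-AA sites covered 49.0%. Against all cDNAs of any region, 1763 genes and 2 members (Tnfsf9 and Tnfrsf1b) were called at 1 h in place of 132 and 0; of the 1763, 1754 had a higher share for TTP-AA, against 41 of 132, because 53.6% of the TTP-AA cDNAs and 9.63% of the TTP cDNAs lay in 3′UTRs. With sites of at least 2 cDNAs, 64 of 794 genes (8.06%) and 1 member (Tnfsf9) were called. Tnfrsf1b then had 58 TTP-AA and 0 TTP cDNAs at 1 h, which gives no odds ratio. With a minimum of 5 cDNAs, 156 genes in place of 74 were called at 0 h and 51 in place of 17 at 4 h. The ratio of summed member cDNAs at 1 h was 7.73 without Tnfsf9 and 5.59 with each site counted once (9.03 for all 3′UTR sites), in place of 13.9 (9.78 for all 3′UTR cDNAs). The share of member cDNAs near AUUUA at 1 h, 67.6% for TTP, was 51.4% within 10 nt, 100% within 50 nt and 100% without Tnfsf9. For TTP-AA, 61.7% became 42.2% within 10 nt, 91.6% within 50 nt, 46.9% with each site counted once and 74.1% without Tnfsf9. The causes of the other changes were not tested. At 4 h, 906 and 1000 3′UTR cDNAs limit what could be listed, and no value has a replicate error.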
